A study of Mus musculus with 2 samples.

Results

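Wide distal peaks of open chromatin were examined in cardiac progenitor cells (CPCs) derived from mouse embryonic stem cells. Members were chosen by the peak list itself. They were the distinct intervals on chromosomes 1 to 19 that were at least 1500 bp wide and whose deposited distance to a transcription start site (TSS) was over 10000 bp. The rule selected 852 of the 25606 intervals on these chromosomes, out of 26232 in all. Width and distance are therefore given below as a description only. The cells were E14 embryonic stem cells with an EmGFP reporter driven by Nkx2-5, a transcription factor gene of early heart cells. They were labelled as strain C57BL/6 and taken at day 5 of differentiation. The 2 replicate samples formed 1 group without knockdown and shared 1 peak list. It came from ATAC-seq, which reads accessible DNA by the places where a transposase can insert. Isl1 knockdown cells were not analysed here. The list held no score, no depth and no value for a single replicate, so no spread between differentiations could be given.

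Enhancers are stretches of DNA, often far from the gene they act on, that are bound by transcription factors and raise the activity of a promoter. Some transcription factors, among them members of the GATA family in the heart, can bind sites in compact chromatin and help to open it. Many mammalian promoters lie in CpG islands, stretches rich in G and C in which the CpG dinucleotide has not been depleted, whereas most enhancers lie outside them. Open chromatin alone does not tell an enhancer from a promoter, an insulator or a repeated sequence.

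Reference sequence is shown first for members assigned to regulators of heart development, because short motifs in such intervals recur throughout the results. Each line gives 200 bases of mm9, plus strand, around the midpoint of a member assigned to Gata5, Meis2, Msx1 or Gli2. Gata5 encodes a GATA factor of early heart tissue, Meis2 a homeodomain cofactor, Msx1 a homeodomain factor downstream of BMP signalling and Gli2 a transcription factor of the Hedgehog pathway. Matches on either strand to the GATA motif AGATAA, the TEAD motif GGAATG, the T-box motif AGGTGT or the E-box CAGATG stand in capitals.
Gata5 (chr2:180089657-180089856): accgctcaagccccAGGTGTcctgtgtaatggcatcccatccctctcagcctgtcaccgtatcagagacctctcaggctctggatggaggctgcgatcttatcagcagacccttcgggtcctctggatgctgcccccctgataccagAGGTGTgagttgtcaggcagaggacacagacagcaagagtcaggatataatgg
Meis2 (chr2:115685794-115685993): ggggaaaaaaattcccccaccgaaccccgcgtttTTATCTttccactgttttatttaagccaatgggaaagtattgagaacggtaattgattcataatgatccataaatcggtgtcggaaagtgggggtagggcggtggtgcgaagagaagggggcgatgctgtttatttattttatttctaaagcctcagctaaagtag
Msx1 (chr5:38285038-38285237): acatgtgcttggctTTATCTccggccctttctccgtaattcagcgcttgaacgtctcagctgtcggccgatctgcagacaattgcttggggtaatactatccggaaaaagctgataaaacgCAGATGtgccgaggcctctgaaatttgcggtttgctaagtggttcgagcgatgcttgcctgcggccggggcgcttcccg
Gli2 (chr1:120900894-120901093): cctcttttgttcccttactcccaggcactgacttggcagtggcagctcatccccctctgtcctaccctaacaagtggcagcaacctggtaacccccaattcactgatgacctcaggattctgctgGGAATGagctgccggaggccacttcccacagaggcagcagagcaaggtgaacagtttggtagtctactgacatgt
The Gata5 window held the T-box letters 2 times, the Meis2 and Msx1 windows each held the GATA letters on the minus strand, and the Msx1 window also held the E-box. The Gli2 window held 1 TEAD match. Each window shown held a match, whereas the 200 bases around the midpoints of the Hey1, Tbx2 and Tead1 members held none of these motifs. Over the central 500 bp of all 25606 intervals, 14.9% held the GATA letters, 24.9% the TEAD letters, 20.7% the T-box letters and 26.5% the E-box letters, so each match is a common one and is a description of the sequence.

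Members also differed widely in base composition. The windows below come from members assigned to Pax3, a paired-box factor of neural crest and muscle precursors, and to Dpf1, a subunit of SWI/SNF chromatin remodellers. Capitals mark the E-box in the Pax3 window.
Pax3 (chr1:78213231-78213430): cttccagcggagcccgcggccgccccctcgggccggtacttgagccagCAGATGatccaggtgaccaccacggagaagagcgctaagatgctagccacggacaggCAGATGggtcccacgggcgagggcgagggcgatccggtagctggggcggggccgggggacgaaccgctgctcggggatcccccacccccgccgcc
Dpf1 (chr7:30102607-30102806): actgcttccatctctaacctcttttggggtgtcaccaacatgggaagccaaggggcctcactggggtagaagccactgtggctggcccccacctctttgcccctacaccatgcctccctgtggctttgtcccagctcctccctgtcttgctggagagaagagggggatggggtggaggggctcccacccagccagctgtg
In these 200 bases the Pax3 window held 21 CpG dinucleotides and the Dpf1 window held 0. The Dpf1 member was 5677 bp wide, the second widest of all.

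Members were 1500 to 6590 bp wide, with a median of 1793.5 bp and quartiles of 1628.75 and 2072 bp. Their midpoints lay a median of 30758.5 bp from the assigned TSS, with 67.7% between 10 and 50 kb, 19.2% between 50 and 100 kb and 13.0% farther. Just inside the width limit were members assigned to Mapk8 (1500 bp), Morn1 (1500 bp) and 1700049E22Rik (1501 bp), and just outside it were intervals assigned to Rhbdl3 (1499 bp), Mga (1499 bp) and Pcmtd1 (1498 bp). Closest to the distance limit were members assigned to Gadd45b (10029 bp), Nrxn2 (10034 bp), H2-Bl (-10074 bp), Irf2bpl (-10084 bp) and Slc30a3 (10113 bp), where a minus sign means upstream of the TSS. An interval carries the coordinates of 1 replicate, so its width depends on how that replicate was sequenced and how peaks were found, beside the chromatin.

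The word distal did not hold for every member once a fuller annotation was used. The midpoint of 160 of the 852 members (18.8%, 95% Wilson interval 16.3 to 21.5%) lay within 1 kb of a TSS of some GENCODE transcript. Among the 9808 narrower peaks beyond the same distance the share was 5.91%, a difference of 12.9 percentage points (95% Newcombe interval 10.3 to 15.7). Both intervals cover counting error over intervals of this list only. With protein coding transcripts alone, 11.5% of the wide and 2.39% of the narrower distal peaks lay within 1 kb of a TSS. At the other end, 555 members (65.1%, 61.9 to 68.3%) had no annotated TSS within 10 kb, against 77.6% of narrower distal peaks.

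Of the 160 members at an annotated TSS, 89 lay closest to the start of a protein coding transcript, 27 to a processed transcript, 11 to a retained-intron transcript, 9 to a lincRNA and 7 to a small nuclear RNA. In 54 of them the start belonged to the assigned gene itself, as an alternative start far from the one the distance was measured from, and in 106 to another gene. Of the 132 that were not mostly multi-copy, as defined below, the widest (3441 bp, assigned to Mdfi) lay 804 bp from a start of Foxp4, a forkhead factor. The member assigned to Garnl3 (3324 bp) lay 188 bp from another annotated start of Garnl3. The one assigned to Bcl9l (3224 bp) lay 291 bp from the lincRNA C030014I23Rik. Members assigned to Mir3063 (2787 bp) and Mir6921 (2700 bp) lay 479 bp from a start of Igf2bp1 and 531 bp from a start of Rai1. In each of these the deposited distance had been taken from a start farther away.

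**Figure D1:**
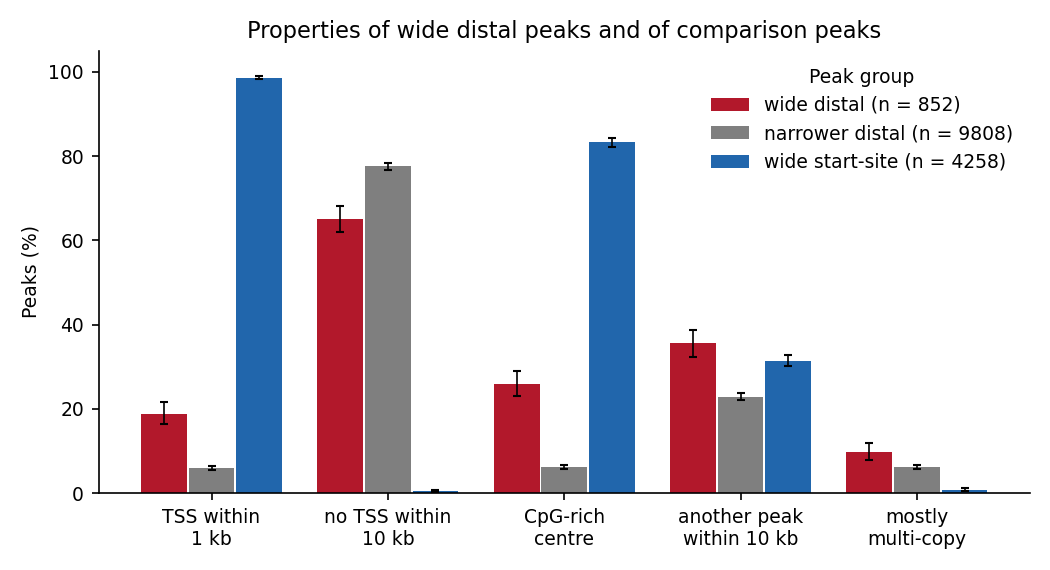
Share of peaks (%, vertical axis) with each of 5 properties in wide distal peaks (red), narrower distal peaks (grey) and peaks at least as wide within 1 kb of their assigned TSS (blue). Bars start at 0 and whiskers are 95% Wilson intervals over peaks. In TSS share (18.8%) wide distal peaks lay above narrower ones, while the blue group was chosen by its TSS distance. In CpG-rich share (25.9%) they lay between the other groups. They had the highest share of multi-copy sequence (9.74%).

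Base composition was next measured in the central 500 bp, a window of equal size in every peak. The median GC content was 56.6% in wide distal peaks, 52.4% in narrower distal peaks and 68.0% in the 4258 wide peaks within 1 kb of their assigned TSS. The median ratio of observed to expected CpG was 0.342, 0.224 and 0.827 in the same order. A centre was counted as CpG-rich at a GC content of at least 50% and a ratio of at least 0.6. This held for 221 wide distal peaks (25.9%, 23.1 to 28.99%), 6.26% of narrower distal peaks and 83.3% of wide start-site peaks. The difference between wide and narrower distal peaks was 19.7 points (16.8 to 22.8).

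CpG-rich centres were most frequent among members at an annotated TSS, where they made up 63.75% (56.1 to 70.8%). They were not limited to them. Of the 555 members with no TSS within 10 kb, 94 were CpG-rich (16.9%, 14.05 to 20.3%), against 4.96% of the 7614 narrower peaks with none. The widest single-copy examples were assigned to Fignl2 (3292 bp, distance -23542 bp), Wnt11 (2962 bp, -19049 bp) and Gadd45b (2668 bp, 10029 bp). Wnt11 encodes a Wnt ligand of the non-canonical pathway that acts in heart development, and Gadd45b a stress-induced growth arrest protein. The member assigned to Mir30d reached a GC content of 82.2% and a CpG ratio of 1.19, and the one assigned to Nup210 reached 79.4% and 1.00. The member assigned to Pax3, at -19619 bp, had a CpG ratio of 0.892. Distal peaks with no TSS within 10 kb had CpG-rich centres in 1.75% below 600 bp and 4.67% from 800 to 1000 bp. In the classes between 1000 and 1500 bp the share was 8.58 and 12.4%, from narrow to wide. Above them it was 17.4% from 1500 to 2000 bp and 15.8% at 2000 bp or more.

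**Figure D2:**
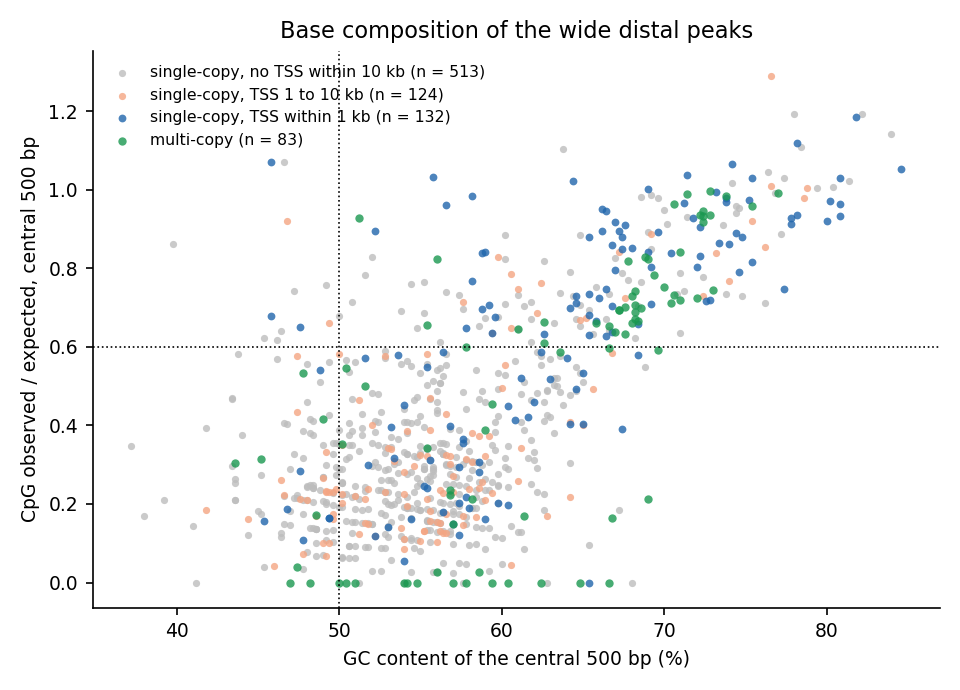
GC content (%, horizontal axis) against observed over expected CpG (vertical axis) in the central 500 bp of the 852 wide distal peaks, 1 point per peak, coloured by copy number and distance to an annotated TSS. Dotted lines mark 50% GC and a ratio of 0.6. The upper right holds 221 peaks, among them 77 single-copy peaks at an annotated TSS, 79 single-copy peaks with none within 10 kb and 43 multi-copy peaks.

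A share of the members consisted of sequence that is present more than once in the genome. Runs of 32 bases were sampled every 8 bp, and an interval was counted as mostly multi-copy when at least 50% of its runs occurred more than once in mm9. This held for 83 members (9.74%, 7.93 to 11.9%), 6.10% of narrower distal peaks and 0.822% of wide start-site peaks. Among members over 50000 bp from the assigned TSS the share was 18.2%. The difference between wide and narrower distal peaks was 3.64 points (1.77 to 5.87), with related copies counted as separate intervals. Among peaks with no TSS within 10 kb the shares were 7.57 and 5.91%, and the interval of the difference spanned 0 (1.66 points, -0.34 to 4.21). No member held a run found in the mitochondrial genome. The filter on reads given in the study's methods names unmapped, unpaired and secondary reads, and a filter on mapping quality is not given in the sources used here, so the copy from which reads came cannot be told apart in these intervals.

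The widest member of all, at chr8:126141786-126148375 and assigned to Rhou, was 6590 bp long and 97.7% multi-copy. It held 4 annotated ribosomal RNA genes and its midpoint lay 822 bp from the start of 1 of them. Chromosome 14 held 29 of the 83 multi-copy members and chromosome 12 held 12. On chromosome 14, 28 of them lay within 17.1 Mb at chr14:3331717-20405878, next to a family of predicted genes such as Gm3264, Gm3383 and Gm10413. They were 1550 to 3068 bp wide, with a median of 2158 bp, and 70.8 to 100% multi-copy. Of the 28, 22 had CpG-rich centres and 18 lay within 1 kb of an annotated protein coding TSS of the family. To show how alike they are, the following run of 60 bases (chr14:3332059-3332118, plus strand) was found letter for letter, on either strand, in 23 of the 28.
shared run: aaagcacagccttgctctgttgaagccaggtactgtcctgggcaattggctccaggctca
Without the multi-copy members, 769 members were left, of which 17.2% lay within 1 kb of a TSS and 23.1% were CpG-rich.

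Members often had a further peak close by. For 303 (35.6%, 32.4 to 38.8%) the gap to the nearest other peak was at most 10 kb, against 22.8% of narrower distal peaks (difference 12.7 points, 9.49 to 16.1) and 31.4% of wide start-site peaks. The share depended on the gap allowed, being 13.97% at 5 kb and 67.7% at 25 kb. Of the multi-copy members 12.05% had such a neighbour. In distal peaks with no TSS within 10 kb the share was 13.5% below 600 bp and 22.3% from 800 to 1000 bp. In the classes between 1000 and 1500 bp it was 30.0 and 28.8%, from narrow to wide. Above them it was 36.7% from 1500 to 2000 bp and 41.4% at 2000 bp or more.

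Members were also found next to each other. With gaps of at most 50 kb, 79 groups of 2 or more held 180 members. The largest group had 6 members over 107 kb of chromosome 18, at Cxxc5, which encodes a CXXC zinc finger protein, and towards Psd2. They lay at -14.5, 10.9, 32.7, 44.5, 59.0 and 90.1 kb from the Cxxc5 TSS and were 1632, 4147, 1996, 2941, 3299 and 3776 bp wide. The member at 10.9 kb lay in an intron of Cxxc5 and the others between genes. All 6 were at most 1.22% multi-copy.

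The group at Zfpm1 had 4 members over 43.5 kb of chromosome 8. Zfpm1 encodes FOG1, a zinc finger cofactor that binds GATA factors. The members lay at 13.4, 30.9, 40.8 and 53.6 kb from the Zfpm1 TSS, all within the gene, and were 3625, 2069, 3608 and 2939 bp wide. The last pair were assigned to Trhr2, whose TSS lies nearer. A further member lay at -51.6 kb, with a GC content of 70.2% and a CpG ratio of 0.913. The Ahdc1 group had 4 members over 48.4 kb of chromosome 4, of which the first lay 442 bp from an annotated internal start of Ahdc1 and the last, assigned to Wasf2, 170 bp from the start of Gm10151. Of the 4 members in the Arhgap23 and Socs7 group on chromosome 11, over 36.8 kb, those assigned to Arhgap23 lay in its introns, and 1 of them 325 bp and another 621 bp from an annotated start.

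**Figure D3:**
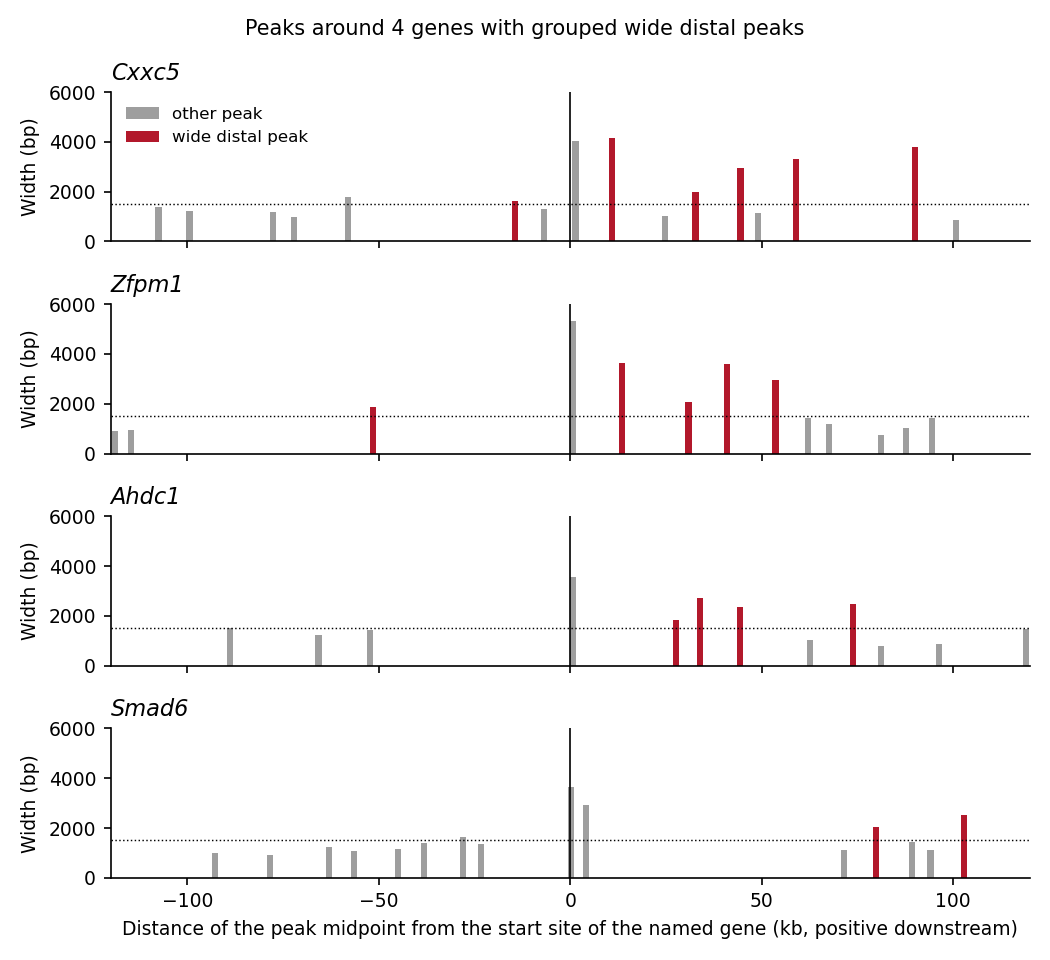
Peaks within 120 kb of the TSS of Cxxc5, Zfpm1, Ahdc1 and Smad6. The horizontal axis is the distance of the peak midpoint from that TSS in kb, positive downstream, each bar is 1 peak and its height is the width in bp, red bars are wide distal peaks and grey bars other peaks, and the dotted line marks 1500 bp. At Cxxc5 6 red bars reach 4147 bp, at Zfpm1 5 reach 3625 bp, at Ahdc1 4 reach 2710 bp and at Smad6 2 reach 2508 bp.

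The 852 members were assigned to 732 genes, of which 634 had 1 member, 80 had 2 and 18 had 3 or more. Cxxc5 and Gm3264 had 5 each. The others, with 3 each, included Casz1, a zinc finger factor needed for heart development, Zfpm1, Zfp423, Gse1, Slc6a6, a taurine transporter, Kctd15, Ntm, Pcdh1, Ahdc1, Arhgap23, Grin2c, Tmem121, 1700030C10Rik, Gm3383 and Gm10413. In 4 of the 18 genes every member was mostly multi-copy, and in 12 none was. The 3 Casz1 members were of nearly equal width, at 1526, 1562 and 1544 bp, 1 of them at -33379 bp and the others within the gene. Of the 3 Ntm members, all in Ntm, 1 was 67.2% multi-copy. Members assigned to Grin2c, an NMDA receptor subunit gene, lay in introns of Tmem104 in 2 of 3 cases.

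The assigned gene was the gene of the nearest annotated protein coding TSS for 550 members (64.6%, 61.3 to 67.7%), against 68.5% of narrower distal peaks. Among peaks with no TSS within 10 kb these shares were 69.2 and 69.6% (difference -0.37 points, -4.46 to 3.48). By position, 381 members (44.7%) were intergenic, 277 (32.5%, 29.5 to 35.7%) lay in introns and 34 (3.99%) in exons, leaving out those within 1 kb of a TSS. The intron share differed from that of narrower distal peaks by -6.68 points (-9.89 to -3.32), and without regard to TSS distance it was 42.3% in wide and 41.9% in narrower ones. Of the 360 members in an intron, 199 lay in the assigned gene. On chromosome 8, 21 members lay within Gm20388, a very long annotated gene, and 12 of them in no other gene. Members lay upstream of the assigned TSS in 44.5% of cases and narrower distal peaks in 43.3% (difference 1.22 points, -2.22 to 4.72).

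Genes with known roles were followed through 8 lists. In all, 24 members (2.82%, 1.90 to 4.16%) were assigned to a gene of the lists, against 2.58% of narrower distal peaks (difference 0.24 points, -0.74 to 1.61). Over all genes, wide peaks made up 7.99% of distal peaks. The share was 7.37% for cardiac regulators, 6.82% for signalling genes, 14.3% for sarcomere and contraction genes and 23.1% for SWI/SNF subunits, the last pair from 21 and 13 distal peaks only. It was 10% for pluripotency, 7.69% for blood and endothelial, 7.14% for neural and 0% for smooth muscle genes, from 20, 26, 14 and 2 distal peaks.

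Of the 37 cardiac regulators, 7 had a member. These were Gata5, Meis2, Msx1, Msx2, Tbx2, Hey1 and Tead1. The Gata5 member was 2118 bp wide, lay at -20372 bp and held 1 GATA and 2 TEAD matches in its central 500 bp. The Meis2 member was 2092 bp wide, held 2 GATA matches and 1 TEAD match there, and lay 204462 bp from the assigned TSS but 12785 bp from another Meis2 start. Msx1 and Msx2 had members of 1622 bp at -69313 bp and 1523 bp at 10601 bp. Tbx2 encodes a T-box repressor of the atrioventricular canal, and its member was 2448 bp wide with a CpG ratio of 0.784. Hey1, a Notch target, had 1 of 1615 bp at -100282 bp. The Tead1 member was 2201 bp wide, lay in an intron of Tead1 and held 4 TEAD matches over its whole length but 0 in the central 500 bp. Isl1, Nkx2-5, Gata4, Tbx5 and Mef2c had no member.

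Among 38 signalling genes, 4 had members. Smad6, an inhibitor of BMP signalling, had 2 at 79742 and 102868 bp, of 2043 and 2508 bp, both downstream of the TSS and between genes. Wnt11 had 2 of 2962 and 1890 bp at -19049 and 17826 bp, and these differed in CpG ratio, at 0.729 and 0.110. Gli2 had 1 of 1860 bp in an intron, and Wnt2b had 1 of 1627 bp at 18438 bp.

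Among 24 sarcomere and contraction genes, Atp2a2, the calcium pump of the sarcoplasmic reticulum, had a member of 2099 bp at -19286 bp. It was 35.5% multi-copy. Slc8a1, the sodium-calcium exchanger, had 1 of 1533 bp at 68560 bp, and Ldb3, a Z-disc protein, had 1 of 1643 bp at 14562 bp. The SWI/SNF genes with a member were Arid1a (2001 bp wide, at -60205 bp), Dpf1 (5677 bp, at 13682 bp) and Smarce1 (1515 bp, at 23786 bp). The Arid1a member lay 2603 bp from a start of Gm12974. Of genes that mark other cell types, Egfl7 and Erg of the blood and endothelial list, Pax3 of the neural list and Esrrb and Sall4 of the pluripotency list had 1 member each, and the smooth muscle list had 0. The Erg member was 99.5% multi-copy. Assignment by distance does not show which gene an interval acts on, and no expression value was used.

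The widest members with no annotated TSS within 10 kb were assigned to Ptma (4170 bp), Cxxc5 (4147 bp), Rybp (4085 bp), Klf12 (3869 bp), Psd2 (3776 bp), Mir6979 (3696 bp), Zfpm1 (3625 bp), Trhr2 (3608 bp), Cxxc5 again (3299 bp) and Fignl2 (3292 bp). Ptma encodes prothymosin alpha, Rybp a subunit of Polycomb repressive complexes and Klf12 a Krüppel-like repressor. The member assigned to Src, a tyrosine kinase gene, was 3859 bp wide and lay in an intron 1587 bp from another Src start. Farthest from any GENCODE TSS were members assigned to B930025P03Rik (262766 bp), Qk (239799 bp), Gm6567 (236606 bp), 1700030C10Rik (219052 bp) and 5730507C01Rik (211664 bp). The last pair were 79.8 and 59.2% multi-copy, and the other 3 held no sampled run that was repeated. Their deposited distances to the assigned TSS were 216764, 239800, -36845, 618894 and 660684 bp in the order named, so the Gm6567 member lay nearer to its assigned TSS.

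Transcription factor motifs were counted on both strands in the central 500 bp. Of 16 motifs, 9 were less frequent in wide than in narrower distal peaks, 3 were more frequent, and for 4 the 95% interval of the difference spanned 0. With the letters of each motif in reversed order, a control with equal base content, 9 were less frequent and 1 was more frequent. These were not all the same motifs. TEAD, homeobox and CTCF were lower only in the given order, and T-box, NKX2-5 and FOX only in the reversed order. GATA letters occurred in 135 members (15.8%, 13.5 to 18.4%) and in 24.3% of narrower distal peaks, a difference of -8.42 points (-10.9 to -5.68). The reversed letters occurred in 9.74 and 14.3%, a difference of -4.59 points. Peaks with the GATA letters were 1.63 times as many as those with the reversed letters among wide, and 1.69 times among narrower, distal peaks. Among peaks with no TSS within 10 kb, split into 6 classes of GC content, the GATA share was lower in wide peaks in 4 and higher in 2, and the interval of the difference spanned 0 in all 6. It was 18.1% in wide and 24.8% in narrower peaks at 50 to 55% GC (difference -6.73 points, -12.2 to 0.24), and 17.7 and 15.8% at 55 to 60% GC (1.92 points, -3.51 to 8.71).

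The TEAD motif, bound by the TEAD factors of the Hippo pathway, occurred in 26.8% of wide and 33.8% of narrower distal peaks, against 13.3 and 15.4% for its reversed letters. With no TSS within 10 kb the TEAD difference was -3.53 points, and its interval spanned 0 (-7.39 to 0.57). Within the classes of GC content it took both directions. Its interval left out 0 only at 60 to 65% GC, with 30.3% in wide and 18.9% in narrower peaks (11.4 points, 1.27 to 23.1). The E-box CAGATG, bound by basic helix-loop-helix factors, occurred in 27.2 and 35.8%, and the reversed letters in 8.22 and 11.0%. The AP-1 motif TGANTCA occurred in 9.39 and 15.9%. In wide peaks its share was close to that of its reversed letters, 8.45%. The shares of the T-box motif and of the NKX2-5 motif CACTTNA differed by 0.22 points (-2.69 to 3.35) and -0.45 points (-3.14 to 2.49), and those of their reversed letters by -4.06 (-7.13 to -0.82) and -2.76 points (-5.21 to -0.035). In wide peaks the T-box letters (24.8%) were rarer than their reversed form (28.3%). The SP motif GGGCGG, which binds SP and KLF factors, occurred in 44.2% of wide and 23.6% of narrower distal peaks, and its reversed letters in 44.4 and 23.5%. The ETS motif CCGGAAG occurred in 7.16 and 4.66%, and its reversed letters, which lack the CpG of the motif, in 8.92 and 9.13%. The NRF1 motif CGCATGCG occurred in 1.17 and 0.336%, and its reversed letters in 0 and 0.0102%.

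**Figure D4:**
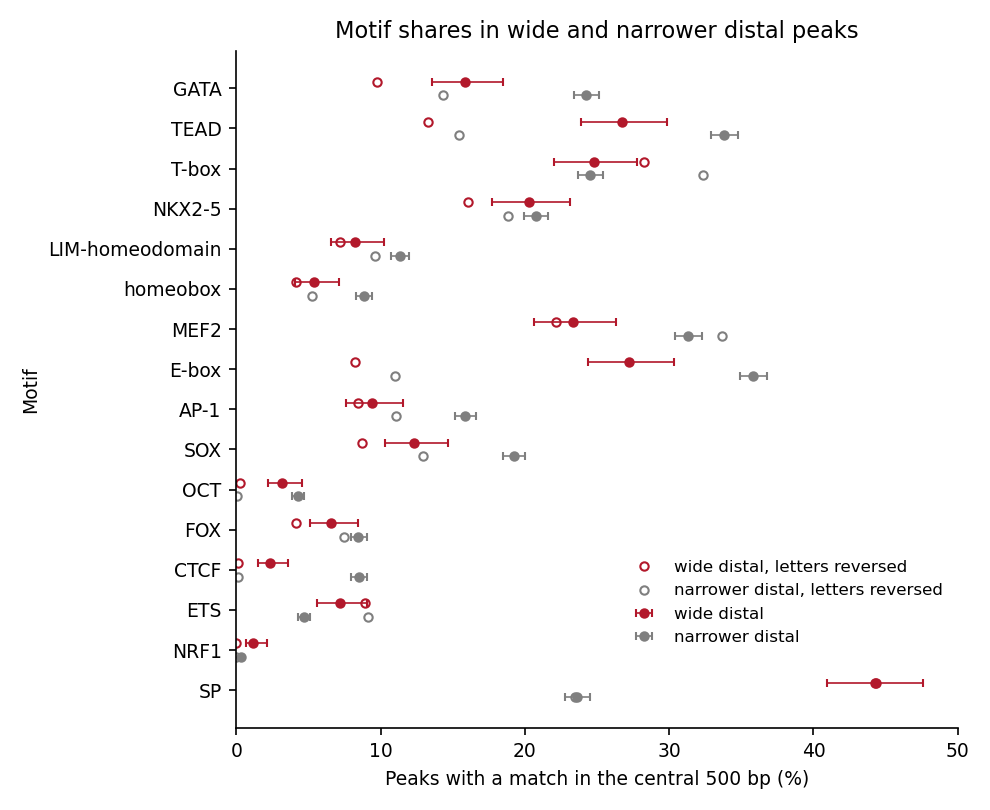
Share of peaks (%, horizontal axis) with a match to each of 16 motifs (vertical axis) in the central 500 bp of 852 wide (red) and 9808 narrower (grey) distal peaks. Filled points carry 95% Wilson intervals over peaks and open points give the letters in reversed order. The GATA share was 15.8% in wide and 24.3% in narrower peaks, with reversed letters at 9.74 and 14.3%.

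CTCF, the factor bound at insulators and loop anchors, showed a different arrangement. Its motif occurred in the central 500 bp of 20 members (2.35%, 1.52 to 3.60%) and of 8.49% of narrower distal peaks, a difference of -6.15 points (-7.15 to -4.79), while the reversed motif occurred in 0.117 and 0.0918%. With no TSS within 10 kb, the share in wide peaks was lower at a GC content of 55 to 60% (1.83 against 9.55%) and of 50 to 55% (3.87 against 9.42%), and at 65% GC or more it was 6.25 against 3.30% (difference 2.95 points, -2.12 to 11.9). By width the share was 9.31% below 600 bp and 8.35% from 800 to 1000 bp. In the classes between 1000 and 1500 bp it was 7.76 and 3.97%, from narrow to wide. Above them it was 3.23% from 1500 to 2000 bp and 0.658% at 2000 bp or more.

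The window at the midpoint covers less of a wide peak, so matches were also counted over whole intervals. Over their whole length 11.9% of wide and 9.47% of narrower distal peaks held a CTCF match, at 0.0740 and 0.112 matches per kb. GATA matches were held by 50.1% of wide and 36.5% of narrower distal peaks, the opposite order to the central window, at 0.379 and 0.566 per kb. TEAD matches were held by 67.4 and 46.4%, at 0.648 and 0.769 per kb. CTCF matches were counted around the midpoint of 513 single-copy members with no TSS within 10 kb. The 100 bp on its side of lower coordinates held 0 and the 100 bp on its other side 1. The bin centred 450 bp to that other side held 11 (0.214 per kb), the most of any bin. The bin 450 bp to the side of lower coordinates held 5 (0.0975 per kb). In the 7164 like narrower peaks the same central bins held 209 and 211 matches (0.292 and 0.295 per kb), and the bin 450 bp to the other side held 11. TEAD matches in narrower peaks stood at 1.139 and 1.09 per kb in the central bins and 0.606 in that same bin. In wide peaks they stood at 0.858 and 0.663 per kb in the central bins and 0.721 in that same bin. Peak summits were not analysed here, and the midpoint of a wide interval need not be where accessibility was highest. The counts of CTCF matches per bin in wide peaks were at most 11.

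**Figure D5:**
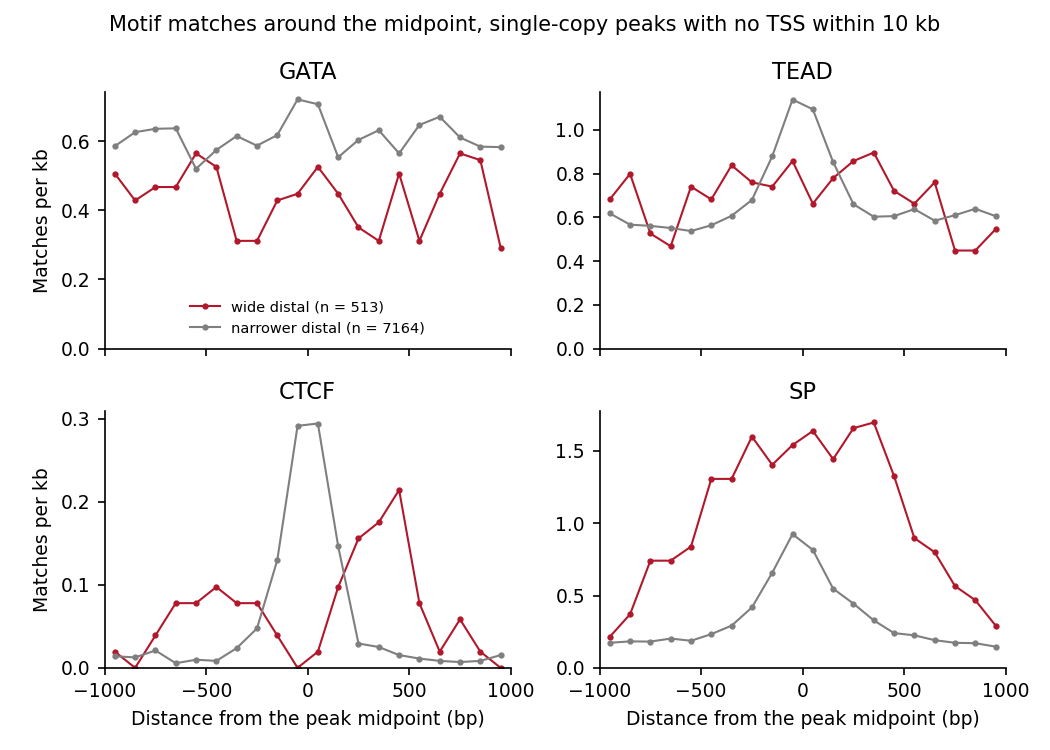
Matches per kb (vertical axes, each from 0) to the GATA, TEAD, CTCF and SP motifs in bins of 100 bp by distance from the peak midpoint (bp, horizontal axis), in 513 wide (red) and 7164 narrower (grey) single-copy distal peaks with no TSS within 10 kb. CTCF matches in narrower peaks reached 0.295 per kb at the midpoint, where wide peaks held at most 0.0195 per kb, and TEAD matches rose to 1.139 per kb at the midpoint of narrower peaks.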

How the data were processed

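ATAC-seq of 2 replicate samples of day 5 CPCs, per the study's methods independent differentiations, was represented by 1 peak list. The authors deposited interval starts, ends and signed TSS distances in bp, with accession and symbol. They mapped reads to mm9 with bowtie2, removed duplicates with Picard 1.136, found peaks in each replicate with MACS14, filtered peaks overlapping the ENCODE blacklist and kept those overlapping by at least 1 bp between replicates with bedtools 2.15. Neither depth nor replicate values were in the list, so no precision per sample could be given.

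The 26429 lines held 26232 distinct intervals. Sequence came from NCBIM37 (mm9) and gene models from GENCODE vM1. TSS distance, position, base composition, motif letters and copies of 32-mers were computed with Python 3.11.15, numpy 2.4.6, pyfaidx 0.9.0.4 and numba 0.67.0, and the code was tested on simulated sequences with planted motifs and repeats. Shares carry 95% Wilson and differences 95% Newcombe intervals (statsmodels 0.14.6). No test over samples was possible with 1 group. The members, gene lists and motifs were chosen with earlier results of these data known. The groups of neighbouring members, the GC and width classes, the midpoint profile and the shared run were chosen after the data were seen. Named were the 10 widest members overall and without a TSS within 10 kb, genes with 3 or more members and list genes. Also named were the widest multi-copy members, the 5 farthest from a GENCODE TSS and those nearest the limits. Examples at annotated starts or with CpG-rich centres were chosen by width after their values were seen. Alternative limits, windows, annotations and run lengths are given in the closing section. Some named members and sequences are not reported here.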

Additional observations from a re-analysis of the deposited data

How the results depend on the processing

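No paired analysis was possible because both replicates belong to 1 group and share 1 list, and for the same reason neither replicate could be left out. The number of members was 852, and 1701, 257 and 275 with a lower width limit, with a limit of 2000 bp and with a distance over 50000 bp. In the same order of settings, the share of multi-copy members was 7.17, 12.1 and 18.2%. The TSS share was 16.1 and 22.2% at the lower and higher width limit, 16.2 and 22.2% with 500 bp and 2 kb in place of 1 kb, and 11.5% with protein coding transcripts alone, for which the difference from narrower distal peaks was 9.12 points. The CpG-rich share was 21.2% at the lower width limit, 22.7% with stricter thresholds and 16.8% over whole intervals. The share with a neighbour was 43.9 and 22.9% with distances over 5000 and 50000 bp, and 13.97 and 67.7% with gaps of 5 and 25 kb. The intron share was 28.7% beyond 50000 bp and 42.3% with TSS distance ignored. With 50-mers 7.86% were multi-copy. The GATA difference was -11.4 points in 1000 bp and -4.59 points for reversed letters. In alternatives chosen after seeing the data it turned to 13.6 points over whole intervals, which are longer in the wide group by construction. Within 6 classes of GC content, also chosen after seeing the data, from low to high it was -7.79, -1.26, -6.73, 1.92, 2.44 and -3.95 points, each with an interval that spanned 0, and the cause was not tested. Over whole intervals the differences also turned for TEAD (21.0), LIM-homeodomain (11.1), homeobox (4.65), MEF2 (17.4), E-box (20.4), AP-1 (9.87), SOX (11.2) and CTCF (2.38 points). For reversed letters they turned for CTCF (0.026), ETS (-0.21) and NRF1 (-0.010 points). The letters counted as MEF2 were CTANNNNTA with any base at N. Over all 25606 intervals 22.9% held this loose pattern in the central 500 bp, against 24.8% for its reversed letters. In all, 48 values of these results, among them those of the lowest and the third GC class, stayed within the interval of the value reported or, for counts, within 1.5 times it. For single motifs 33 values stayed within the interval, and 16 moved outside it without a clear difference changing direction. Depth was unknown, so its effect on width could not be measured.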

Other observations

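The members were not spread evenly over the chromosomes. Wide peaks made up 4.23% of the distal peaks of chromosomes 10 and 16 and 10.9% of those of chromosome 8. On chromosome 14 they made up 10.2%, and 5.52% when multi-copy intervals were left out of both classes.

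The 3 members assigned to Tmem121 on chromosome 12 lay at 36775, 76814 and 150007 bp from its TSS, near constant region genes of the immunoglobulin heavy chain. The nearest annotated start was that of Ighg1, 5388 bp away, for the third and that of Gm900, also annotated as such a gene, for the second. They were 0, 18.1 and 60.4% multi-copy.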
